A study of Mus musculus with 8 samples.

Results

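The 9 genes described are genes of sebaceous gland lipid synthesis, measured in mouse dorsal skin after wax plucking: Elovl3, Elovl4, Far2, Awat1, Awat2, Dgat2l6, Mc5r, Soat1 and Fa2h. They are 9 of the 34790 gene names on the array. All 9 were chosen by gene name, as known sebaceous lipid genes, once values of these same arrays had been seen. Their levels and differences are therefore given as descriptions, with no test.

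The mice were females of C57BL/6, a common inbred strain, whose back hair follicles were at rest when they were plucked. One sample was taken from skin that had only been shaved, at 10 weeks of age per the labels. The plucked samples were taken at 12 h, 1 d, 2 d and 4 d (10 weeks of age), at 6 d and 10 d (11 weeks) and at 50 d (17 weeks). The treatment protocol in the labels instead gives 7 to 8 weeks. All mice were waxed once beforehand to bring the follicles into step, per the series' design text. The labels say that adipose cells were isolated from the samples, whereas the design text describes fat and dermis around the follicles. The labels do not say how many mice gave each sample. Each of the 8 samples was hybridised to 1 one-colour array, so no time has a replicate, the spread between mice is unknown, and the 7 differences from the shaved skin share 1 control array.

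Sebaceous glands open into the hair follicle. Their cells fill with lipid, burst, and release it as sebum, a mixture rich in wax esters, cholesterol esters, triglycerides and other esters of very long fatty acids. Elongases lengthen the fatty acyl chains, a reductase turns some of them into fatty alcohols, and acyltransferases join acyl chains to alcohols, glycerides or sterols. In mice the melanocortin 5 receptor is known to govern sebaceous secretion. Several of these enzymes also act elsewhere: Elovl4 and Fa2h in the lipids of the epidermal barrier and Fa2h in myelin, Elovl3 in brown fat, and Soat1 in macrophages.

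Between 72.9% and 81.2% of the spots on an array were well above background. Levels are log2 values of the scanner's processed signal relative to each array's 75th percentile, so 0 stands for that percentile. Levels of different genes come from different probes and are not set against each other. Where a gene had several probes, their differences from the shaved array varied with a median SD between 0.15 and 0.18 (log2). This spread between probes is called the technical SD below, and it leaves out the spread between mice and between arrays. A gene counted as called from a 2-fold difference upward, provided that the brighter array measured it well above background. The markers of fat were measured on every array: all 17 mature adipocyte markers were well above background on all 8. All 18 hair shaft and inner root sheath markers were well above background on all 8 arrays too, and 16 to 18 of the 18 interfollicular keratinocyte markers were. The samples thus held follicle and epidermal RNA beside that of fat. In such bulk samples fewer cells of a type and less RNA per cell cannot be told apart.

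Elovl4, Far2, Awat1, Dgat2l6 and Fa2h, 5 of the 9 genes, followed 1 course: they were above the shaved array over the first 4 d, far lower at 6 d than at 4 d, lowest at 10 d, and within 2-fold of the shaved level at 50 d. Elovl3 shared the low 10 d value, Awat2 had it at a small size, and Soat1 and Mc5r did not have it. The values follow by the genes' roles, from the enzymes that make the acyl chains to the receptor.

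**Figure D1:**
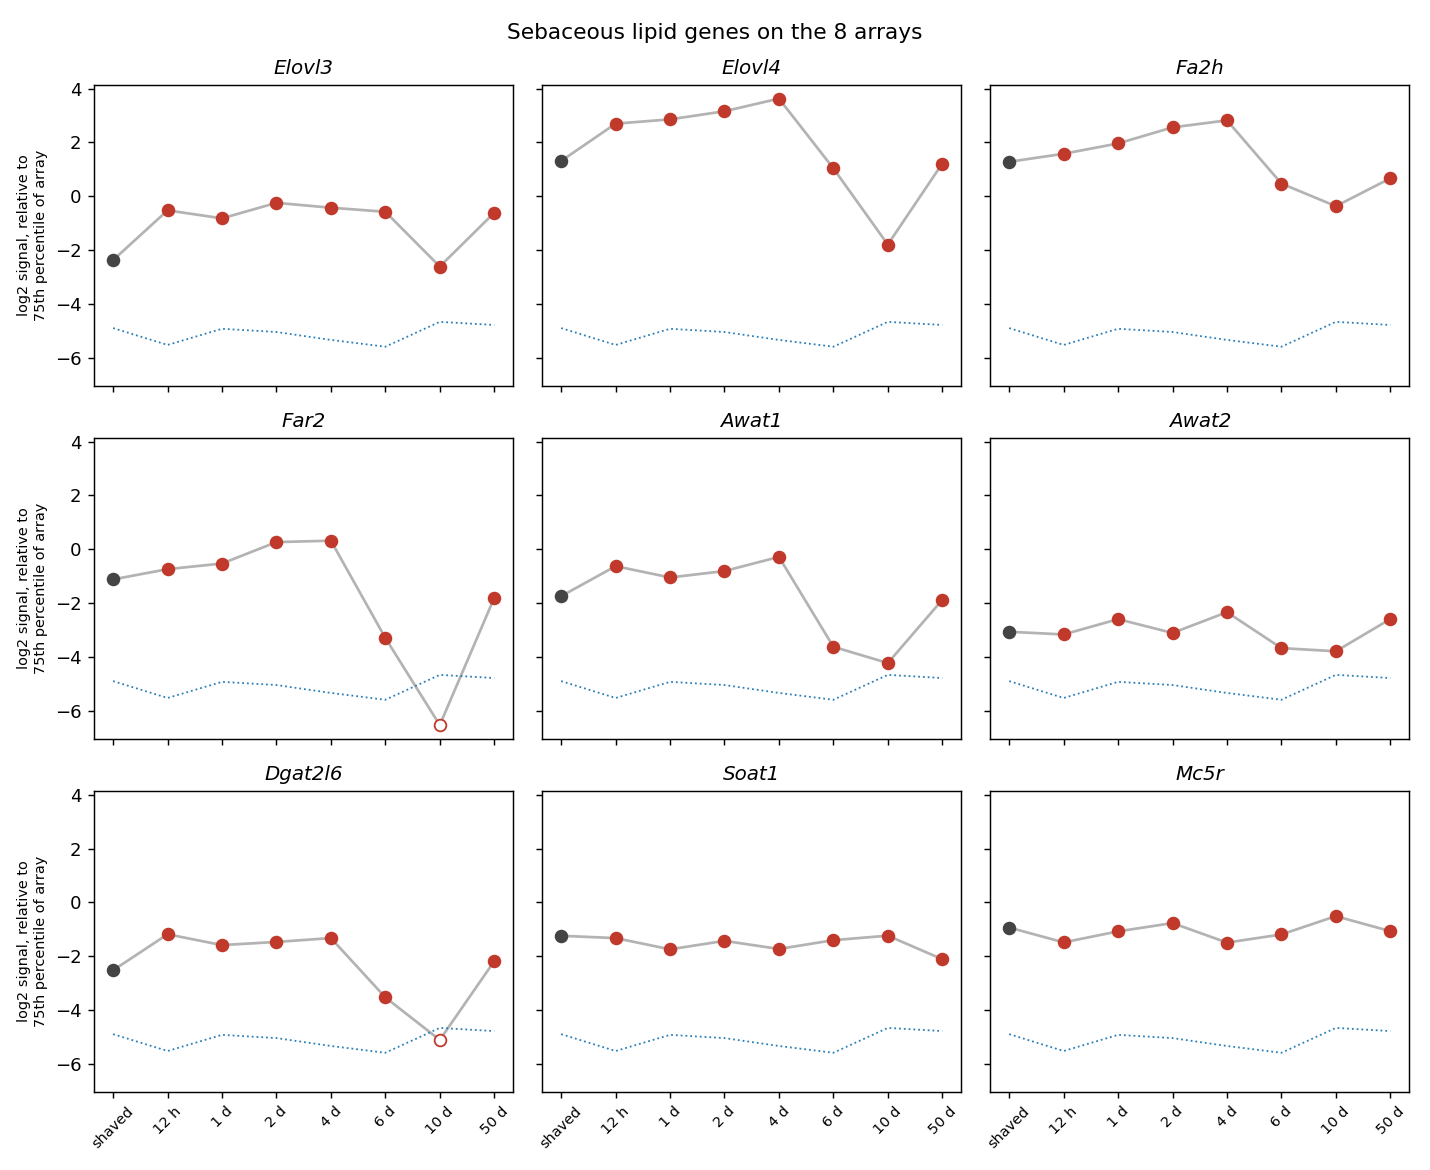
Level of each of the 9 genes on the 8 arrays (1 point per array, log2 of the processed signal relative to the array's 75th percentile). Open points were not well above background, and the dotted line is the lowest signal well above background on each array. The 10 d point is the lowest in 7 of the 9 panels, and Far2 and Dgat2l6 are open there.

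Elovl4 encodes the elongase that makes the longest fatty acids of skin. It stood at 1.31 in shaved skin, 2.70 at 12 h, 2.86 after 1 d, 3.16 after 2 d, 3.63 after 4 d, 1.04 after 6 d, -1.80 after 10 d and 1.21 after 50 d. The first 4 plucked arrays all lay above the shaved one, and the 10 d array lay below all others. Compared with shaved skin the level was 4.99-fold higher at 4 d and 8.63-fold lower at 10 d, differences of 2.32 and -3.11 on the log2 scale. A pair of probes reads the gene on the minus strand of chromosome 9 in mm9, at 83673253 to 83673312 and at 83672645 to 83672704. All probe positions are on mm9. Exon and UTR positions of the probes are not given, since mm9 gene models were not used here. The first 30 bases of each are shown, the probe used and then the other, because both gave the same course.
Elovl4 used: caacatctaaggtagtcacatttacatgca
Elovl4 other: tttttacacagattaatttgttatgggcgt
The second probe differed from the shaved array by 2.08 after 4 d, -0.41 after 6 d and -3.32 after 10 d, within 0.3 of the first at each of these times.

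Elovl3 encodes an elongase of sebaceous glands and brown fat. Its level was -2.37 in shaved skin, -0.53 at 12 h, -0.82 after 1 d, -0.25 after 2 d, -0.43 after 4 d, -0.58 after 6 d, -2.61 after 10 d and -0.62 after 50 d. The shaved and 10 d arrays were low, and the other 6 stood close together. At 12 h it was 3.60-fold higher than in shaved skin, at 2 d 4.37-fold and at 50 d 3.38-fold, and at 10 d it differed by only -0.24. Against the 50 d array instead of the shaved one, the 1 d difference of 1.55 turned to -0.21. The probe lies on chromosome 19, 46209762 to 46209821.

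Fa2h encodes the enzyme that puts a hydroxyl group on the fatty acids of ceramides and other lipids. It read 1.28 in shaved skin, 1.58 at 12 h, 1.96 after 1 d, 2.56 after 2 d, 2.82 after 4 d, 0.47 after 6 d, -0.37 after 10 d and 0.67 after 50 d. Each of the first 4 plucked arrays was above the shaved one and each of the last 3 below it, and every neighbouring pair in the order of levels was farther apart than the technical SD. The 4 d level was 2.91-fold higher and the 10 d level 3.14-fold lower than in shaved skin. Its probe is on chromosome 8, 113869096 to 113869155.

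Far2 encodes the reductase that makes fatty alcohols, the alcohol part of wax esters. The level was -1.12 in shaved skin, -0.74 at 12 h, -0.53 after 1 d, 0.27 after 2 d, 0.32 after 4 d, -3.30 after 6 d and -1.81 after 50 d. At 10 d it was not well above background, with a measured value of -6.54. Relative to shaved skin it was 2.71-fold higher at 4 d, 4.52-fold lower at 6 d and at least 11.7-fold lower at 10 d. That bound uses the lowest signal well above background on the 10 d array. The course rests on 1 probe, at 148124346 to 148124405 on chromosome 6, whose first 30 bases are shown above those of a second probe at 148130437 to 148130496.
Far2 used: ttaatgctaaaaggaacaaacggtgtagat
Far2 other: tctgaaacgacagcaaattatttccactat
The second probe was well above background on 2 of the 8 arrays, where it stood at -5.37 (12 h) and -5.25 (6 d), and it does not measure the course.

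Awat1 encodes an acyltransferase that joins fatty alcohols to acyl chains as wax esters. Its level was -1.74 in shaved skin, -0.63 at 12 h, -1.05 after 1 d, -0.81 after 2 d, -0.28 after 4 d, -3.63 after 6 d, -4.23 after 10 d and -1.88 after 50 d. The 6 d and 10 d arrays stood well apart below the other 6. At 10 d its processed signal, 30.9, was near the lowest signal well above background on that array, 22.8. Compared with shaved skin it was 2.75-fold higher at 4 d, 3.69-fold lower at 6 d and 5.61-fold lower at 10 d, while the 50 d difference of -0.14 was within the technical SD. Its probe is on chromosome X, 97773128 to 97773187.

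Dgat2l6 belongs to the same acyltransferase family as Awat1. It stood at -2.53 in shaved skin, -1.19 at 12 h, -1.59 after 1 d, -1.47 after 2 d, -1.33 after 4 d, -3.54 after 6 d and -2.19 after 50 d, and was not well above background at 10 d, with a measured value of -5.12. Its highest array was 12 h, and the 12 h, 1 d, 2 d and 4 d arrays were all higher than the shaved one. It was 2.53-fold higher at 12 h, 2.01-fold lower at 6 d and at least 4.42-fold lower at 10 d than in shaved skin. The 6 d call lies just inside the 2-fold threshold and the 1 d difference of 0.94 just outside. The probe is on chromosome X, 97741165 to 97741224.

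Awat2, the other wax ester acyltransferase, varied far less, on a dim probe. Its processed signal was 41.8 at 10 d and 133 at 4 d. The lowest signal well above background at 10 d was 22.8, which limits the fall that could be seen. It read -3.07 in shaved skin, -3.17 at 12 h, -2.60 after 1 d, -3.11 after 2 d, -2.34 after 4 d, -3.68 after 6 d, -3.79 after 10 d and -2.60 after 50 d. The order of its arrays resembled that of Awat1 at the ends, with 4 d highest and 6 d and 10 d lowest. No time was called against shaved skin, and the largest differences were 0.73 after 4 d and -0.73 after 10 d. Its probe lies on chromosome X, 97597565 to 97597624, and the genes Awat2, Dgat2l6 and Awat1 lie close together there.

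Soat1 encodes the enzyme that esterifies cholesterol. The level was -1.25 in shaved skin, -1.33 at 12 h, -1.75 after 1 d, -1.43 after 2 d, -1.74 after 4 d, -1.41 after 6 d, -1.24 after 10 d and -2.12 after 50 d. It was highest at 10 d, level with shaved skin (a difference of 0.0045), and lowest at 50 d. No time reached 2-fold. The probe is on chromosome 1, 158358766 to 158358825. Macrophages express Soat1 too, and the summed signal of the 15 macrophage markers on the array was 494 in shaved skin (in units of the array's 75th percentile), 174 after 4 d, 398 after 10 d and 225 after 50 d. Its part in the Soat1 values was not tested.

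Mc5r, the melanocortin receptor of sebaceous and other exocrine glands, was likewise near flat. It stood at -0.94 in shaved skin, -1.49 at 12 h, -1.08 after 1 d, -0.77 after 2 d, -1.50 after 4 d, -1.20 after 6 d, -0.52 after 10 d and -1.07 after 50 d. Its highest array was 10 d, where 7 of the other genes were lowest, and its lowest was 4 d. All differences from shaved skin lay between -0.56 and 0.42. Of the 10 other melanocortin genes measured, Mc1r, the pigment cell receptor, was not well above background in shaved skin and stood at -0.62 after 4 d. Mc2r, the corticotropin receptor, differed from shaved skin by -1.59 on the log2 scale at 10 d, and Pomc, the precursor of the ligands, stood between -3.29 and -2.82 on all arrays.

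Counted together, 4 of the 9 genes were at least 2-fold higher than in shaved skin at 12 h, against a background of 3.89% of all genes tested, and none was lower (background 3.36%). At 1 d 2 were higher (2.67%) and none lower (3.21%). At 2 d 5 were higher (2.56%) and none lower (3.57%). At 4 d 6 were higher (5.89%), all but Awat2, Mc5r and Soat1, and none lower (6.62%). At 6 d only Elovl3 was higher (4.24%) and 3 were lower (2.12%). At 10 d none was higher (3.76%) and 5 were lower (2.29%): Elovl4, Far2, Awat1, Dgat2l6 and Fa2h. At 50 d Elovl3 alone was higher (2.72%) and none was lower (4.41%). Since the genes were picked with these values known, nothing is read from the counts.

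The median difference of the 9 from shaved skin was 0.38 at 12 h, 0.68 after 1 d, 1.05 after 2 d, 1.44 after 4 d, -0.61 after 6 d, -1.65 after 10 d and -0.13 after 50 d. Over all genes tested the medians stayed between -0.13 and 0.02. With normexp background correction the 10 d median was -1.03, and over the 7 members well above background on both arrays it was -0.73. The 10 d array, on which 7 of 9 members were lowest, held the lowest value of 16.0% of all genes well above background on at least 4 arrays. Its spike-in slope, 0.891, was the lowest of the 8, and the file headers mark it as out of range.

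Steps between plucked arrays do not involve the control array. At 6 d, 6 of the 9 genes were at least 2-fold lower than at 4 d, and 2.61% of all genes tested were; none was higher (5.17%). Far2 was 12.3-fold lower, Awat1 10.1-fold, Elovl4 6.04-fold, Fa2h 5.10-fold, Dgat2l6 4.61-fold and Awat2 2.53-fold. Elovl3 differed by -0.15, Mc5r by 0.30 and Soat1 by 0.33. The median of the 9 was -2.21 against 0.03 for all genes, and -1.58 with the mean over probes. No member was called between 4 d and 2 d, where 4.82% of all genes were called higher and 3.92% lower.

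At 10 d, 4 members were at least 2-fold lower than at 6 d (4.09% of all genes) and none higher (2.52%). Elovl4 was 7.13-fold and Elovl3 4.10-fold lower, and Far2 was at least 2.59-fold and Dgat2l6 at least 2.20-fold lower. With these bounds the genes of this step have no order. The median of the 9 for this step was -0.84, and only -0.18 with normexp background correction. Awat1, at -0.60, and Awat2, at -0.12, were already low at 6 d. Elovl3 stayed high 1 array longer than Far2 and Awat1. At 50 d, 7 members were at least 2-fold higher than at 10 d, where 6.09% of all genes were, and none was lower (6.48%). Elovl4 was 8.05-fold, Awat1 5.10-fold, Elovl3 3.99-fold, Awat2 2.30-fold and Fa2h 2.05-fold higher, and Far2 and Dgat2l6 were at least 7.25-fold and 5.58-fold higher. Mc5r and Soat1 were lower, by -0.56 and -0.88. For 50 d against 10 d the median of the 9 was 2.00, and 1.23 with normexp background correction.

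**Figure D2:**
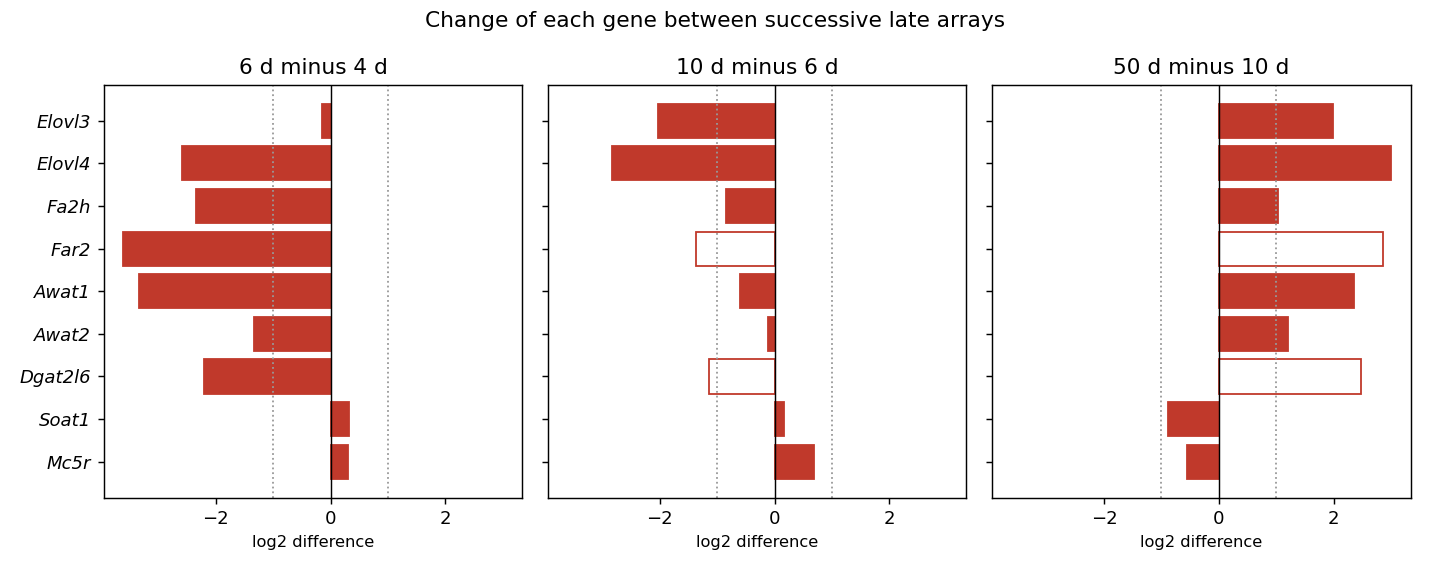
Difference of each of the 9 genes between successive late arrays (log2, first-named minus second-named, 1 array each). Open bars are bounds, dotted lines mark 2-fold. Far2, at -3.62, and Awat1, at -3.34, have the longest bars at 6 d. At 10 d the measured bars of Elovl4 and Elovl3 reach -2.83 and -2.04 beside the bounds of Far2 and Dgat2l6, and at 50 d 7 of 9 bars point up.

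Pearson's r over the 8 arrays was 0.97 for Awat1 and Dgat2l6, for Far2 and Dgat2l6, and for Elovl4 and Far2, with the 10 d values of Far2 and Dgat2l6 taken as measured although not well above background. All 10 pairs among Elovl4, Far2, Awat1, Dgat2l6 and Fa2h had r between 0.87 and 0.97. Elovl3 had r of 0.77 with Elovl4, and Mc5r was negatively related to Elovl4 at -0.67. All points share the slide and the makeup of each sample, and the values describe these 8 arrays only.

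For 4 members with this shared course, the 250 bases before the annotated start are shown, from RefSeq on GRCm38.p6, a different build from that of the probes. RefSeq promoters were matched for 6 of the 9 genes. Capitals mark matches, on either strand, to 7 short motifs, which are spelled out below the windows. The windows are chr9:83806306-83806555 (minus strand), chr6:148047166-148047415 (plus), chrX:100571997-100572246 (plus) and chrX:100524588-100524837 (plus).
Elovl4: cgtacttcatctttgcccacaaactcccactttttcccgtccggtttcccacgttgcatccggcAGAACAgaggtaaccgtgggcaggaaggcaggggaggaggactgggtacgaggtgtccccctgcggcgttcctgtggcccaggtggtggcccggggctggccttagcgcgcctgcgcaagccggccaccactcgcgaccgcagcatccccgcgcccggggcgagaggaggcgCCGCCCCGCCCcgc
Far2: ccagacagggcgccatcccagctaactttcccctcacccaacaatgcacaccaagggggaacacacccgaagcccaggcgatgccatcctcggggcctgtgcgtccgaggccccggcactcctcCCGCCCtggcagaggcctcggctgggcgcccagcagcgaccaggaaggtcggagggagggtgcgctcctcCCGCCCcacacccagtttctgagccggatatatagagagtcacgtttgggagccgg
Awat1: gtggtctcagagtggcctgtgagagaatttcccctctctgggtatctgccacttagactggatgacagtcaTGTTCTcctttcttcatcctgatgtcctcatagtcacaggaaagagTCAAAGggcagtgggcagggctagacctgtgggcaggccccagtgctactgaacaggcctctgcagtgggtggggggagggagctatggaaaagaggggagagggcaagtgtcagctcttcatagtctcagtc
Dgat2l6: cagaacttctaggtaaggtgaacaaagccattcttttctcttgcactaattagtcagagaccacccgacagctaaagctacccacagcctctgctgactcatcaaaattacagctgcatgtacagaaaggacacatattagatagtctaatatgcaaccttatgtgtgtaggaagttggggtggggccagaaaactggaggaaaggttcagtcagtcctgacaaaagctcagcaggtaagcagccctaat
No motif was shared by all 4 windows. The GC box GGGCGG was in those of Elovl4, where 2 matches overlap by 1 base, and of Far2. It was in 32.7% of all 32851 promoters of this length. TGTTCT, the half-site of the androgen and glucocorticoid receptors, was in those of Elovl4 and Awat1 and in 16.1% of all. The LEF/TCF core CTTTGA was in that of Awat1 and in 13.8% of all, and the window of Dgat2l6 held none of the 7. None of the 4 windows held the CCAAT box, the letters CCAAT, which 33.8% of all promoters hold, or the nuclear receptor half-site AGGTCA (14.0%), the TATA box TATAAA (12.4%) or the E-box CACGTG (6.02%). Apart from the GC boxes of Elovl4, no matches in these windows overlap.

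Other genes of sebocytes and the sebaceous duct showed the same late decline in part. Of 20 on the array, 5 were at least 2-fold lower than in shaved skin at 6 d and 8 after 10 d, and at 4 d 5 were higher. Defb6, a defensin, differed from shaved skin by -4.35 at 10 d, and Cyp1a1, a detoxifying oxygenase, was not well above background there. Krt79, a keratin of the sebaceous duct, was 3.02 above shaved skin at 4 d and differed by -2.57 after 10 d. Cidea, a lipid droplet protein, differed by -2.33 after 10 d but by 3.65 after 50 d. On that 50 d array 6 of 13 brown and beige fat markers were at least 2-fold higher too (2.72% of all genes). The part of fat RNA in the Cidea values was not tested. Among genes of the list that fat also expresses, values differed in size: at 10 d Scd1, a desaturase, differed by 0.08, Pparg, a regulator of lipid cells, by -0.64 and Cidec, a lipid droplet protein, by -1.15.

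The wider lipid enzymes differed from shaved skin in part. Of 15 other wax, sterol ester and acylglycerol enzymes, none was called at 4 d or 6 d, and 1 was higher at 50 d (background 2.72%). At 10 d 3 were lower (2.29%), among them the triglyceride enzyme Dgat2 at -1.48. Of 16 other elongases, desaturases and fatty acid synthases tested, none was at least 2-fold lower than in shaved skin at any of the 7 times, though 6 were higher at 50 d. The 10 d array was the lowest for 7 of the 15 (46.7%) and for 7 of the 16 (43.8%). At 50 d 4 of the 15 and 8 of the 16 were at least 2-fold higher than at 10 d, and none was lower. Elovl6, an elongase of shorter acyl chains than Elovl4 uses, was 2.04 above shaved skin at 4 d, 1.36 after 6 d and 2.37 after 50 d. Elovl7 was 1.93 above at 4 d and 0.94 above at 6 d, and differed by -0.56 at 10 d, so that its highest and lowest arrays were those of Elovl4.

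Epidermal genes moved with the 9 in part. The 18 interfollicular keratinocyte markers had a median difference from shaved skin of 2.25 at 12 h, 3.32 after 1 d, 2.06 after 2 d, 1.90 after 4 d, 0.86 after 6 d, -0.87 after 10 d and 0.05 after 50 d. At 10 d 8 of them were at least 2-fold lower than in shaved skin and 4 higher, and Flg2, a cornified layer gene, was not well above background. At 6 d 9 of 18 were lower than at 4 d, with a median of -1.02 against -2.21 for the sebaceous lipid genes. From 6 d to 10 d their median fall was the larger: 13 of 18 were at least 2-fold lower, with a median of -2.11 against -0.84. The fall that Far2, Awat1, Awat2 and Dgat2l6 could show was limited, since their processed signals at 6 d were 97.1, 77.3, 74.7 and 82.3. At 10 d the lowest signal well above background was 22.8, so the sizes of the 2 falls are not set against each other. The 10 d array was the lowest for 12 of the 18 (66.7%), beside 7 of the 9 sebaceous lipid genes (77.8%). The summed signal of the 18 markers was highest at 1 d, at 387, whereas that of the 9 genes peaked at 4 d. Such sums weigh the brightest genes most, and some of the markers, among them Dsg1a, Dsc1 and Krt5, were highest at 4 d too. Of 17 barrier lipid genes tested, 7 were higher at 4 d and 1 lower, and 2 were lower at 10 d; Lass3, now named Cers3, which makes the ceramides of very long acyl chains, was 5.28 above shaved skin at 4 d and still 2.61 above at 10 d. Of the defining markers, Hrnr was also not well above background at 10 d. The part of epidermal RNA in the values of the 9 genes was not tested.

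Follicle markers took another course, and fat markers shared the rise from 10 d to 50 d in part. The 18 hair shaft and inner root sheath markers had medians of 5.02 after 4 d, 6.43 after 6 d and 5.95 after 10 d. They were thus high at 4 d too, and stayed high where the sebaceous lipid genes were low. At 6 d 6 of the 18 were at least 2-fold higher than at 4 d (5.17% of all genes) and none lower, with a median of 0.07. Krt25 was highest at 4 d, at 6.52, and Krt33a at 6 d, at 5.69. At 10 d 10 of the 18 were at least 2-fold lower than at 6 d (4.09%) and none higher. The 17 mature adipocyte markers had medians of -0.51 after 4 d, -0.76 after 6 d and -0.58 after 10 d, and 0.35 after 50 d. At 50 d 9 of them were at least 2-fold higher than at 10 d and none lower (median 1.03), where 6.09% of all genes were higher. So were 7 of the 13 brown and beige fat markers, with none lower (median 1.20). Against shaved skin 6 of these 13 were at least 2-fold higher at 50 d. Ucp1, the uncoupling protein, led them at 8.42, beside Elovl3 at 1.76. On the first 4 plucked arrays Ucp1 lay below shaved skin, or was not well above background, while Elovl3 lay above it. Pdk4, a kinase that restrains glucose oxidation, lay above shaved skin on those arrays too, by 2.00 to 2.41. So did Dio2, which activates thyroid hormone, by 0.88 to 2.15, and the transcription factor Tbx1, by 0.60 to 3.30. Others of the list went the other way: Tmem26 differed by -2.06 at 2 d and Kcnk3 by -1.09 at 4 d. In the whole list 2 genes were called higher and 2 lower at each of 12 h, 1 d and 2 d, and 3 each way at 4 d. The list's median difference on those arrays lay between -0.42 and 0.18. None of the 11 Schwann cell and myelin markers, whose cells also express Fa2h, reached 2-fold at any time after plucking.

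**Figure D3:**
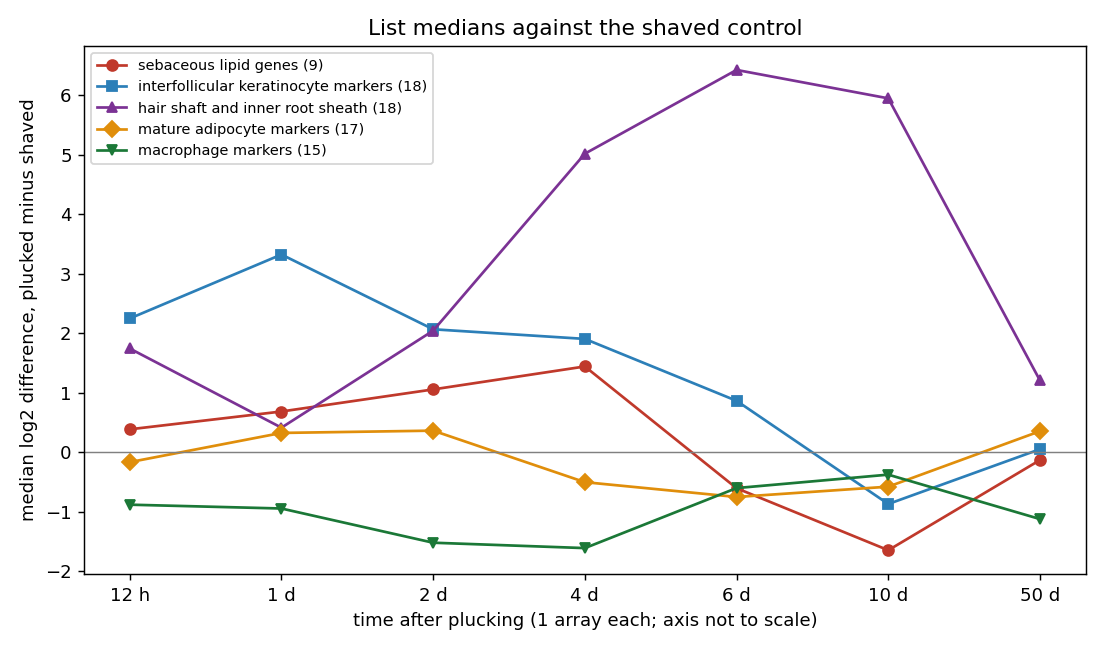
Median log2 difference from the shaved array for the 9 genes and 4 marker lists at the 7 times after plucking (1 array each, number of genes in brackets). The 9 genes go to 1.44 after 4 d and -1.65 after 10 d, while hair shaft markers stay above 5 from 4 d to 10 d and adipocyte markers stay within 1 of shaved skin.

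By the likeness of their course over the 8 arrays to the mean of the 9 genes, the closest of the other genes with an established symbol were Rarres1, at r of 0.99, Aadac, an esterase, at 0.99, and Sdr16c6, a short-chain dehydrogenase, at 0.99. Ephb4, Defb6, Cst6, Tnn, Cyp1a1, Pnpla5 and Hoxd4 followed at 0.98 to 0.97. At 10 d Aadac, Tnn, Cyp1a1 and Pnpla5 were not well above background, and their r takes those values as measured. The mean of the 9 genes likewise takes the dim 10 d values of Far2 and Dgat2l6 as measured, so each r over the 8 arrays rests partly on them. Rarres1 stood at -0.46 in shaved skin, 1.67 after 4 d, -1.30 after 6 d and -3.56 after 10 d. Sdr16c6 was at -0.34 in shaved skin, 1.44 after 4 d, -1.26 after 6 d and -4.12 after 10 d. Without the 6 d and 10 d arrays, the 2 farthest from the median of the mean course, r was 0.97 for Rarres1, 0.95 for Aadac and 0.98 for Sdr16c6, and 0.82 to 0.95 for the other 7. Rarres1 also ranked first for Elovl4, and Sdr16c6 for Far2. The arrays share a slide and their sample makeup, and r is given as a description.

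**Figure D4:**
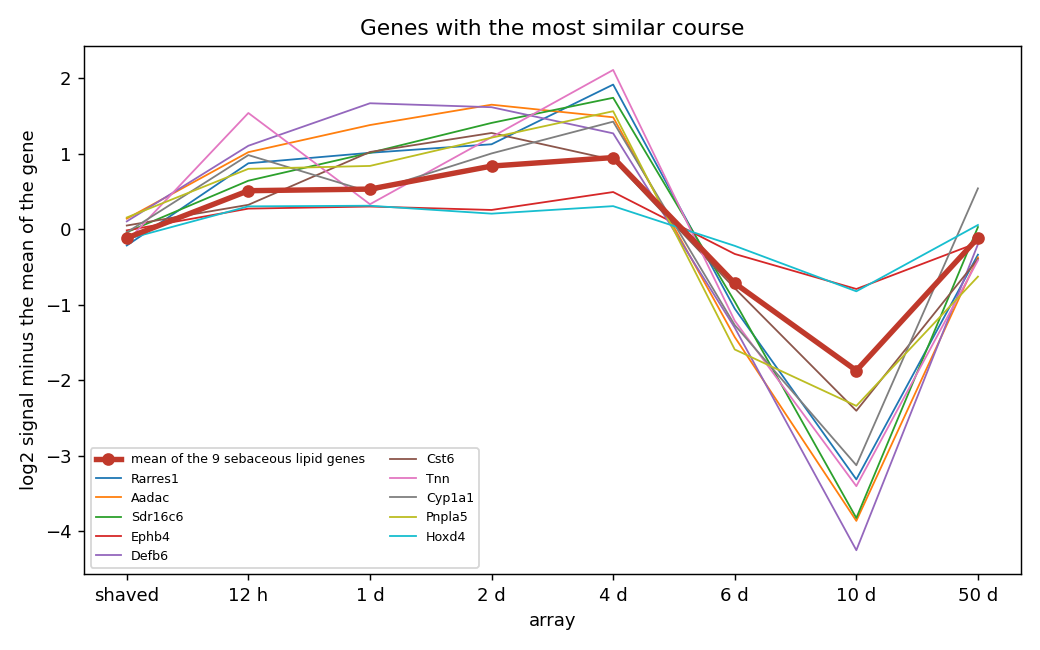
Course of the mean of the 9 genes (thick line) and of the 10 most similar other genes over the 8 arrays, each as log2 signal minus the gene's own mean. All 11 lines are lowest at 10 d, where Aadac, Tnn, Cyp1a1 and Pnpla5 were not well above background. The mean of the 9 stands at 0.95 after 4 d, -0.72 after 6 d and -1.87 after 10 d. Its 10 d value takes Far2 and Dgat2l6 as measured, although neither was well above background there.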

How the data were processed

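Total RNA was labelled with Cy3 and hybridised to Agilent arrays, 1 array for each of 8 samples, all on 1 slide. Per the file headers, the authors deposited spot intensity from Agilent Feature Extraction 10.5.1.1 with background subtracted, detrending on and surrogates for dim spots, and no normalization between arrays is recorded there. Probe positions are mm9 per the file headers.

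Control spots and outlier-flagged spots were left out, 13 of 55681 probes were dropped, and spots of a probe were averaged. No spot was saturated. Values are log2 of the processed signal minus the array's 75th percentile, and the brightest probe stood for a gene. A dim gene's fold was taken against the lowest signal well above background on that array. With 1 array a group there is no test. The number of arrays limits the precision.

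The members and the 11 lists were chosen with earlier results of these data known. The lists were other sebocyte and sebaceous duct genes, acylglycerol and wax enzymes, elongases, melanocortin genes, barrier lipid genes, and markers of keratinocytes, hair shaft, adipocytes, brown fat, macrophages and Schwann cells. List genes were matched by array name, else by accession to RefSeq (GRCm38.p6). Named genes were all members, the 4 genes of a list with the largest difference, and the 10 genes with the highest r to the mean course, or the 3 to a single member, among genes well above background on at least 4 arrays with a range of at least 1. Flg2, Hrnr, Krt5, Scd1, Pparg, Cidec, Pomc, Mrap, Tmem26 and Kcnk3 were named after their values were seen. Alternatives used limma 3.58.1 in R 4.3.3, and the rest numpy 2.4.6 and pandas 2.3.3 under Python 3.11.15. Alternatives were background correction, scaling, the probe of a gene, the filter, the fold threshold and the reference array.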

Additional observations from a re-analysis of the deposited data

How the results depend on the processing

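With 1 array per time, no value has a replicate. The technical SD is a spread between probes of a gene on the same arrays, so it says nothing of mice or arrays. With normexp background correction (offset 50) 45 of 99 member values moved by more than the technical SD and no called value changed sign. The median of the members was then 0.69 after 2 d, 1.15 after 4 d, -1.03 after 10 d, -1.69 for 6 d against 4 d, -0.18 for 10 d against 6 d and 1.23 for 50 d against 10 d. Members at least 2-fold higher at 12 h became 2, and those lower at 10 d than at 6 d also became 2. With the mean over probes the median was 1.20 after 4 d and -1.58 for 6 d against 4 d. Quantile normalization and centring on probes well above background moved none of the 99 member values beyond the technical SD. Taken against the 50 d array instead, the median was 0.91 at 12 h, 0.72 after 2 d, 0.86 after 4 d, -0.19 after 6 d and -2.00 after 10 d, no member was higher at 6 d, a count of 0, and Elovl3 after 1 d turned to -0.21. Requiring signal well above background on both arrays left 3 members lower at 10 d, and a median of -0.73 over such members. At a fold threshold of 1.5, 6 members were higher at 1 d, 5 lower at 6 d and 3 lower at 50 d. At a threshold of 3, 1 was higher at 12 h, 0 after 1 d, 2 after 2 d and 2 after 4 d. The cause of these shifts was not tested. The steps between plucked arrays and their alternatives were chosen after seeing the data. No paired analysis was possible because every group has 1 array.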

Other observations

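Genes whose course lay closest to the less variable members were of other kinds. For Awat2 they were Bcam, a cell adhesion molecule, at r of 0.95 over the 8 arrays, Hdhd3 at 0.89 and Serpinb6e at 0.89. Without the 4 d and 10 d arrays these were 0.93, 0.92 and 0.80. For Soat1 they were Fshb at 0.96, Mertk, a receptor of phagocytes, at 0.96 and Sema3a at 0.95, and without the 1 d and 50 d arrays 0.90, 0.84 and 0.79. Fshb was well above background on 4 of the 8 arrays, so its r rests partly on dim values. Mertk was highest at 10 d, at 1.13, and lowest at 50 d, at 0.05, as Soat1 was.

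In the melanocortin list, Mrap, an accessory protein of the corticotropin receptor that adipocytes express, stood at 3.56 in shaved skin, 4.13 at 1 d, 2.64 at 10 d and 4.35 at 50 d. Mc3r was 1.87 above shaved skin at 4 d and Mc4r differed from it by -1.13. These values are single arrays.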
